A study of Mus musculus with 12 samples.

Results

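The genes described here encode 5 mouse seminal vesicle secretory proteins, Svs2, Svs3a, Svs4, Svs5 and Svs6. They are the genes of a list of seminal vesicle secretion genes that were represented by a probe set with a single gene symbol, and each of the 5 had 1 such probe set. They are 5 of 22180 genes with a single-symbol probe set, and all 5 were among the 20135 genes tested. RNA was measured on 12 arrays, each holding epithelial cells of the prostate of a wild-type, hormone-naïve male mouse whose age the labels do not give. All cells were sorted as negative for the lineage markers CD45, CD31 and Ter119, which mark immune, endothelial and erythroid cells. The luminal gate held Sca1-low, CD49f-low cells of mice 4 and 5, the Sca1-high gate Sca1-high, CD49f-positive cells of mice 1 and 5, and the basal gate Sca1-intermediate, CD49f-positive cells of mice 3 and 5. Each gate was split into LY6D+ and LY6D- cells, LY6D being a surface protein of the Ly6 family, which gave 6 groups of 2 libraries. The whole prostate was the labelled source, and no lobe was named.

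Seminal vesicle secretory proteins are made in large amounts by the epithelium of the seminal vesicle, a gland beside the prostate that empties into the urethra with it. Several of them are cross-linked by the transglutaminase TGM4, a product of the prostate's coagulating gland, into the copulatory plug that rodents form after mating. The genes of the family belong with the semenogelins, the coagulum proteins of human semen, and their transcription in the seminal vesicle is known to depend on androgens.

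The 5 genes lie in 1 run on chromosome 2 of GRCm38.p6, at chr2:164235929-164334394, a stretch of 98.5 kb with 6 protein-coding genes. Svs2 lies at chr2:164235929-164238341 and Svs4 at chr2:164275956-164278307, both on the minus strand. Svs3a lies at chr2:164289267-164291500, Svs6 at chr2:164316751-164318450 and Svs5 at chr2:164332765-164334394, all on the plus strand. The sixth gene of the run is Svs3b, a close relative of Svs3a, at chr2:164254363-164256643 on the minus strand. The sequences around the transcript starts are shown because the 5 genes had similar profiles over the libraries and because they separate the run into close copies. Each holds the 100 bases before the transcript start and the 50 bases from it onward, 5′ to 3′ on the gene's strand, from RefSeq's GRCm38.p6 annotation, with TATAAA on that strand in capitals.
Svs2, chr2:164238292-164238441: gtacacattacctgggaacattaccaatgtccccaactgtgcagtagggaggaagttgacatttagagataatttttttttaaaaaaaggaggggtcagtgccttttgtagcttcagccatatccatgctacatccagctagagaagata
Svs3b, chr2:164256594-164256743: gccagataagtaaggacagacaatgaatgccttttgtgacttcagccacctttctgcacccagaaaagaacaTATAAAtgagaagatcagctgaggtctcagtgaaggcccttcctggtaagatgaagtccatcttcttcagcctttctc
Svs4, chr2:164278258-164278407: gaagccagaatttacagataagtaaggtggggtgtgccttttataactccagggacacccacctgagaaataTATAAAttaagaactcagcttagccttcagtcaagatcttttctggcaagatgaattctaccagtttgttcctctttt
Svs3a, chr2:164289167-164289316: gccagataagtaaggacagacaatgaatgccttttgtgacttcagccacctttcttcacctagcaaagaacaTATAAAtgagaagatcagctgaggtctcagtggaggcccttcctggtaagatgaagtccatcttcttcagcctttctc
Svs6, chr2:164316651-164316800: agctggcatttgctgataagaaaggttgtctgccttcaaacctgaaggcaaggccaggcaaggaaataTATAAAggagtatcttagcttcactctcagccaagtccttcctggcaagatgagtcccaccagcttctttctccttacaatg
Svs5, chr2:164332665-164332814: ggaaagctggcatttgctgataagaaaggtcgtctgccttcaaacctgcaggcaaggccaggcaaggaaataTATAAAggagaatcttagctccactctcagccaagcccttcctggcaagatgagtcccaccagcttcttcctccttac

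The windows of Svs3a and Svs3b were identical at 146 of 150 aligned positions (97.3%), and those of Svs5 and Svs6 at 140 of 154 (90.9%). Over the full 300 bases of the RefSeq promoter entries these values were 97.7% and 93.8%, whereas every other pair of the 6 genes was between 47.7% and 60.1% identical. TATAAA began at position -28 in Svs3a, Svs3b, Svs4 and Svs5 and at -32 in Svs6. Svs2 had none in the window and 2 farther upstream, at -236 and -205. On either strand TATAAA occurred in 14.2% of the 27025 promoter entries. AGAACA, a half-site of the androgen response element, was found on either strand in the 300 bases of Svs3a, Svs3b, Svs5 and Svs6 and in neither Svs2 nor Svs4, and it occurred in 19% of all promoter entries. The GATA factor motif AGATAA, present in 11.4% of entries, was found in Svs2, Svs3a, Svs3b and Svs4, and the forkhead motif TGTTTA, present in 13.4%, in Svs3a and Svs3b. In Svs3a and Svs3b AGAACA began at -34 and ended directly before TATAAA, with no overlap. A match is a description of letters only. How far transcripts of the close copies bind each other's probes was not tested, so values of Svs3a and Svs3b, and of Svs5 and Svs6, may share signal.

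Signals are log2 values as deposited, with a median of 3.90 and a lower quartile of 2.98 over the table. Correlations between arrays ran from 0.777 to 0.913 and no arrays were identical. Krt18, a keratin of simple and luminal epithelium, had a signal of 5.30 in the library labelled LY6D+ from Sca1-high cells of mouse 5, against 10.02 to 11.60 in the other 11 libraries. Ly6d itself was higher in the LY6D+ library in 3 of 6 mouse pairs. For Sca1-high cells of mouse 5 it was 4.70 where the label was LY6D+ and 7.37 where it was LY6D-. A swap of these labels would alter LY6D differences but not gate differences that average both LY6D classes. The members' gate differences that use Sca1-high cells are also given without both libraries. The genes of 2 sorted-out markers, named after their values were seen, were not uniformly low. Ptprc, which encodes CD45, was 4.04 to 8.90 in luminal, 3.86 to 4.53 in Sca1-high and 3.25 to 3.76 in basal libraries. Pecam1, which encodes CD31, was 4.43 to 5.73 in luminal, 6.84 to 9.58 in Sca1-high and 5.70 to 8.62 in basal libraries. Of the lineages, Col17a1, a hemidesmosomal collagen of basal cells, was higher in the basal than in the luminal gate by 2.14 ± 0.32 (limma log2 difference ± SE, adjusted p = 0.0322). It was the 1 of 7 basal markers tested to pass, beside 0.417% of all genes. The summed signal of the basal markers (log2 of the summed linear signals) was 11.35 to 12.94 in basal libraries. In luminal cells it was 10.85 to 11.25 in LY6D+ and 8.14 to 8.97 in LY6D- libraries. None of 7 luminal markers passed, and 5 of 7 had basal minus luminal differences below 0, as had 54.2% of all genes tested. Of these markers, named after their values were seen, Krt8 had -0.02 ± 0.68, Krt18 0.30 ± 0.89 and Foxa1 1.56 ± 0.48. Cd24a, a surface protein of epithelial cells, was 12.67 ± 0.16 in luminal cells, 12.59 ± 0.18 in Sca1-high cells and 12.30 ± 0.17 in basal cells (SD, n = 4 libraries). Libraries of a gate come from 2 mice, so these SDs mix animals with LY6D classes.

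All 5 genes gave their strongest signals in luminal cells. In each of them the 4 luminal libraries lay above all 4 basal libraries, which held for 3.17% of the genes tested, and above all 4 Sca1-high libraries, which held for 2.48%. The 4 luminal libraries lay above all 8 others for 5 of 5 genes and for 0.914% of the genes tested. None of the 5 gate differences between basal and luminal cells passed an adjusted p of 0.05 in limma's test over all genes, in which 84 genes passed (0.417%). Without adjustment 5 of 5 genes had a p under 0.05 in that comparison, as had 9.44% of the genes tested. In bulk samples such as these, fewer cells of a type and less RNA per cell cannot be told apart.

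**Figure D1:**
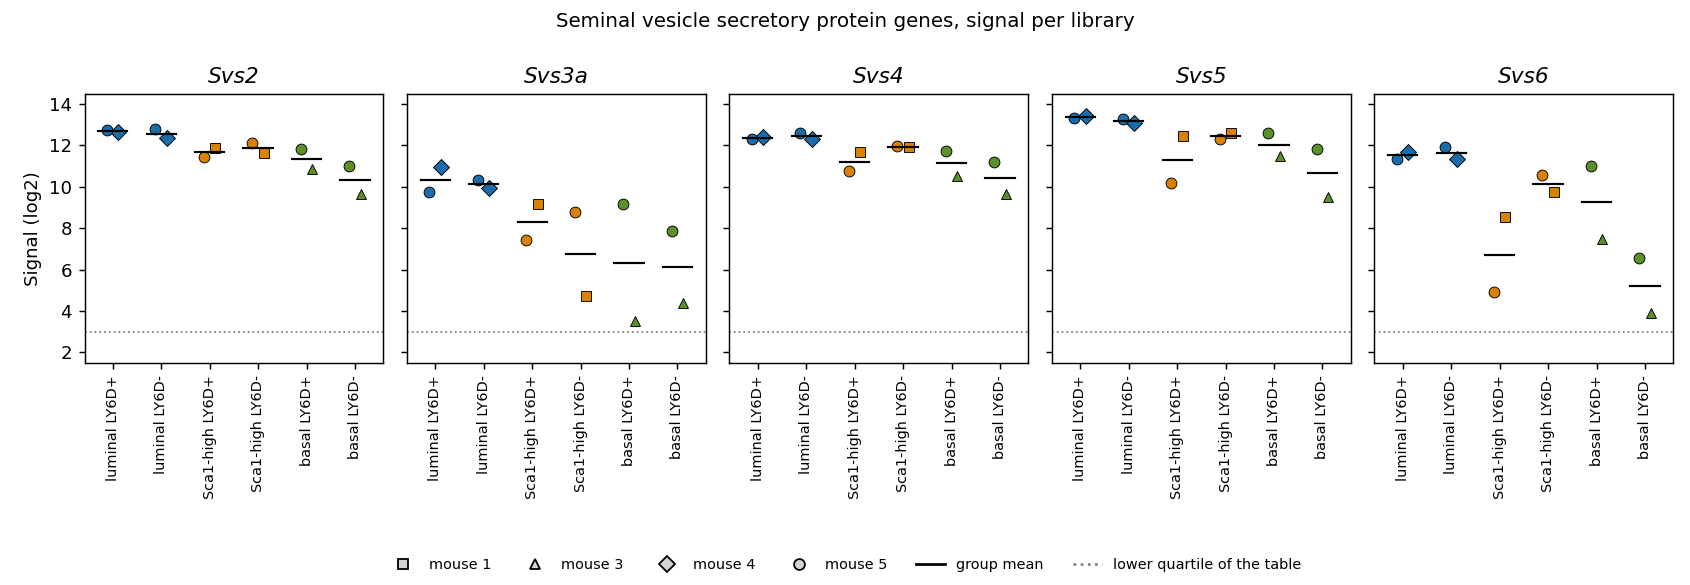
Signal (log2, y axis) of the 5 genes in each of the 12 libraries, by gate and LY6D class (x axis); colours are gates, symbols are mice, bars are group means of 2 libraries and the dotted line is the lower quartile of the table. The luminal libraries lie above the other 8 in every panel, and Svs3a and Svs6 spread outside the luminal gate from lows of 3.51 and 3.88 to just under the luminal level.

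Svs2 encodes a main protein of the copulatory plug that also coats sperm. In luminal cells its signal was 12.66 and 12.75 in LY6D+ cells of mice 4 and 5 and 12.35 and 12.78 in LY6D- cells of the same mice. Among Sca1-high cells it was 11.86 and 11.46 in LY6D+ cells of mice 1 and 5 and 11.61 and 12.13 in LY6D- cells. In the basal gate it was 10.87 and 11.82 in LY6D+ cells of mice 3 and 5 and 9.63 and 10.99 in LY6D- cells. The lowest luminal library was thus above the highest library of either other gate, while the Sca1-high and basal gates overlapped. The basal minus luminal difference of Svs2 was -1.81 ± 0.34 (95% interval -2.57 to -1.05, a 3.5-fold lower signal; limma adjusted p = 0.0679), the smallest adjusted p of the 5 genes in that comparison. After quantile normalization between arrays it was -1.63 with a limma adjusted p of 0.0416, past the threshold, as were 106 of 20135 genes. With mouse as a replicate block the difference was smaller, at -1.36 (limma adjusted p = 0.147). For every gene that fit rests a gate difference on mouse 5, because each of the other mice gave cells of a single gate.

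Svs3a encodes a further protein of the plug. Its luminal signals were 10.96 and 9.74 in LY6D+ cells of mice 4 and 5 and 9.94 and 10.31 in LY6D- cells. Sca1-high signals were 9.16 and 7.45 in LY6D+ cells of mice 1 and 5 and 4.72 and 8.80 in LY6D- cells. In the basal gate they were 3.51 and 9.16 in LY6D+ cells of mice 3 and 5 and 4.40 and 7.84 in LY6D- cells. The basal libraries of mouse 3 were on either side of the table's median of 3.90, and those of mouse 5 within the range of the Sca1-high gate. Gate means were 10.24 ± 0.54, 7.53 ± 2.01 and 6.23 ± 2.70 (SD, n = 4 libraries) in luminal, Sca1-high and basal cells, and the basal minus luminal difference was -4.01 ± 1.33 (95% interval -7.01 to -1.01; limma adjusted p = 0.342). With mouse as a replicate block the difference was -1.53 (adjusted p = 0.848).

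Svs4 encodes a small basic protein whose rat counterpart is a long-studied androgen-dependent product of the seminal vesicle. Its luminal signals were 12.40 and 12.29 in LY6D+ cells of mice 4 and 5 and 12.31 and 12.59 in LY6D- cells. Those of Sca1-high cells were 11.66 and 10.76 in LY6D+ cells of mice 1 and 5 and 11.90 and 11.95 in LY6D- cells, and in the basal gate 10.53 and 11.72 in LY6D+ cells of mice 3 and 5 and 9.64 and 11.18 in LY6D- cells. The luminal libraries had a mean of 12.40 ± 0.14 (SD, n = 4 libraries), and the basal libraries of mouse 3 were the lowest of the 12. The basal minus luminal difference was -1.63 ± 0.38 (95% interval -2.49 to -0.76; limma adjusted p = 0.153), and -0.99 with the replicate block (0.283).

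Svs5 and Svs6 encode small secreted proteins of the same family and have near-identical sequences around their starts, as shown above. Svs5 had luminal signals of 13.44 and 13.33 in LY6D+ cells of mice 4 and 5 and 13.08 and 13.28 in LY6D- cells. In the Sca1-high gate they were 12.46 and 10.16 in LY6D+ cells of mice 1 and 5 and 12.59 and 12.30 in LY6D- cells, and in the basal gate 11.47 and 12.59 in LY6D+ cells of mice 3 and 5 and 9.49 and 11.82 in LY6D- cells. The low Sca1-high value was that of the library with the low Krt18 signal. The basal minus luminal difference of Svs5 was -1.94 ± 0.59 (95% interval -3.27 to -0.61; limma adjusted p = 0.285), and -1.10 with the replicate block (0.528).

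Svs6 had luminal signals of 11.67 and 11.36 in LY6D+ cells of mice 4 and 5 and 11.36 and 11.93 in LY6D- cells. In the Sca1-high gate they were 8.55 and 4.90 in LY6D+ cells of mice 1 and 5 and 9.74 and 10.57 in LY6D- cells, and in the basal gate 7.50 and 11.02 in LY6D+ cells of mice 3 and 5 and 3.88 and 6.57 in LY6D- cells. Outside the luminal gate its libraries ranged from 3.88, about the median of the table, to 11.02, just under the luminal range. The basal minus luminal difference was -4.34 ± 0.97 (95% interval -6.52 to -2.16, a 20.2-fold lower signal; limma adjusted p = 0.126). With the replicate block it was -2.85 (adjusted p = 0.292).

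Between Sca1-high and luminal cells the differences of the 5 genes ran from -3.14 ± 0.97 for Svs6 (adjusted p = 0.404) to -0.83 ± 0.38 for Svs4 (adjusted p = 0.608), with a median of -1.40. None passed limma's test, in which 28 of all genes did (0.139%). Without adjustment, 3 of 5 had a p under 0.05, as had 8.41% of all genes. Both comparisons use the same luminal libraries, so they are not separate evidence. When both Sca1-high libraries of mouse 5 were left out, the differences were -0.90 for Svs2, -3.30 for Svs3a, -0.62 for Svs4, -0.76 for Svs5 and -2.44 for Svs6. All 4 luminal libraries lay above the 2 Sca1-high libraries of mouse 1 for 5 of 5 genes, as for 6.14% of all genes.

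The Sca1-high and basal gates overlapped for every one of the 5 genes, with differences of 0.54 to 1.31 (Sca1-high minus basal), beside a median of 0.11 over all genes tested. None passed limma's test, in which 2 genes did (0.00993%), and 1 of 5 had an unadjusted p under 0.05, as had 9.83% of all genes. The direction was not the same in every fit. With mouse as a replicate block, which rests this comparison on mouse 5, the difference was 0.39 for Svs2 but -0.37 for Svs3a, -0.0952 for Svs4, -0.97 for Svs5 and -1.05 for Svs6. Without the basal LY6D+ library of mouse 3 it was -0.11 for Svs3a, and without the Sca1-high LY6D+ library of mouse 1 or the basal LY6D- library of mouse 3 it was just below 0 for Svs5 (-0.0468 at the lowest). Without the Sca1-high LY6D+ library of mouse 5 the 5 differences were 1.02 to 2.11, and with Sca1-high cells of mouse 1 only they ran from 0.71 to 1.90.

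Ordered by group mean, both luminal groups came first for all 5 genes, and basal LY6D- cells came last. Neighbouring groups below the luminal ones overlapped in nearly all cases. The exception was Svs4, for which both Sca1-high LY6D- libraries (11.90 and 11.95) lay above both Sca1-high LY6D+ libraries (10.76 and 11.66). The values of 10.76 and 11.95 are those of mouse 5, the pair whose Ly6d signals ran against the labels. For Svs5 the LY6D+ luminal libraries lay above the LY6D- ones, by a margin of 0.05 between the nearest libraries, both of mouse 5.

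The size of these differences varied with the mouse. In basal cells the libraries of mouse 5 lay above those of mouse 3 for 5 of 5 genes in both LY6D classes, as they did for 23.1% of all genes. The excess was 0.95 to 5.65 in LY6D+ cells and 1.36 to 3.44 in LY6D- cells, with the highest values in Svs3a. Mouse 5 gave libraries of all 6 groups, which allows the gates to be set against each other within 1 animal. There the luminal library lay above the Sca1-high and basal libraries of its LY6D class for 5 of 5 genes, as for 10.1% of all genes. Luminal minus basal was 0.35 to 0.94 in LY6D+ cells and 1.41 to 5.36 in LY6D- cells of mouse 5. Sca1-high minus basal was below 0 for all 5 genes in LY6D+ cells of mouse 5 (-6.11 to -0.36) and above 0 for all 5 in LY6D- cells (0.48 to 4.00). This split uses the Sca1-high pair whose Ly6d signals ran against the labels (4.70 for LY6D+, 7.37 for LY6D-). The library labelled LY6D+ of that pair also had the low Krt18 signal of 5.30. Left out together, 3 libraries of mouse 5 that an earlier analysis of these data had found apart (basal LY6D+, basal LY6D- and luminal LY6D-) gave basal minus luminal differences of -2.28 for Svs2, -6.19 for Svs3a, -2.24 for Svs4, -2.75 for Svs5 and -5.75 for Svs6, with none past the threshold. Over the libraries that remained the luminal values lay above the basal ones for 5 of 5 genes and for 11.8% of all genes.

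**Figure D2:**
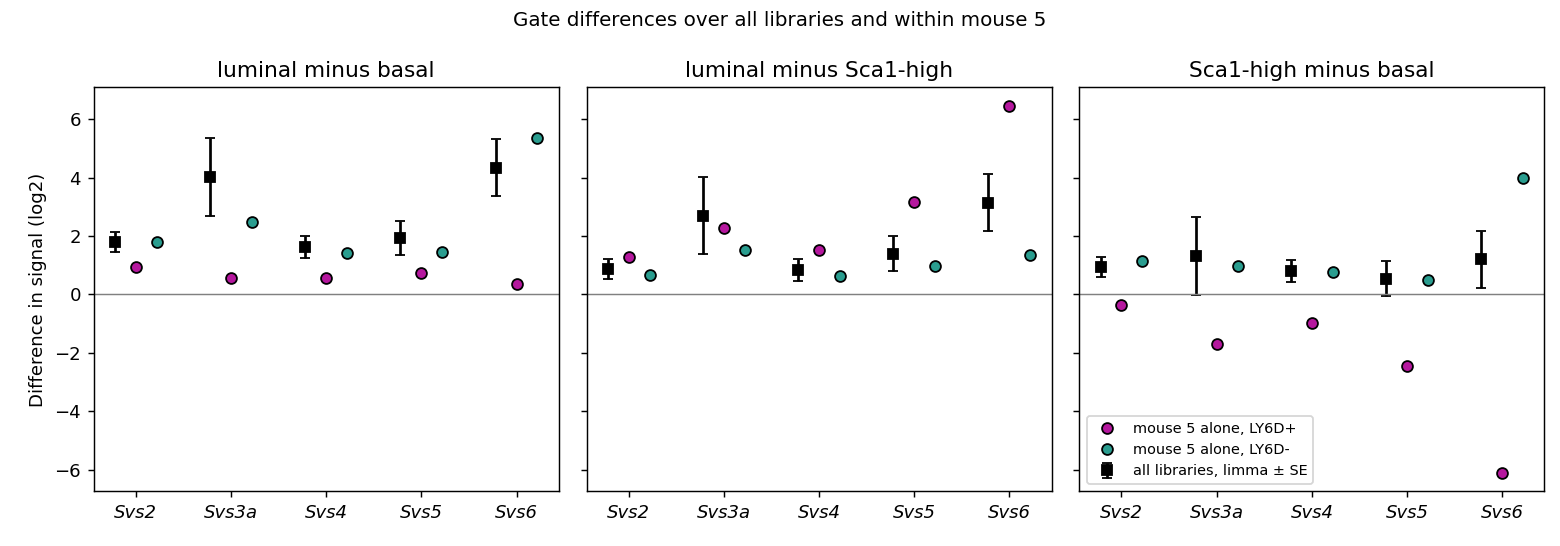
Gate differences in signal (log2, y axis) of the 5 genes (x axis) for 3 pairs of gates. Squares are limma differences over all libraries with their SE and circles are differences between 2 libraries of mouse 5, by LY6D class. Luminal cells are above both other gates in every case shown, and the LY6D classes of mouse 5 lie on opposite sides of 0 in the comparison of Sca1-high with basal cells. The Sca1-high pair of mouse 5 is the one whose Ly6d signals ran against the labels.

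Whether LY6D marked a difference in these genes within a gate was tested in each gate and over the 3 gates. No member passed limma's test in any of them (adjusted p = 1.00 for each). Over all genes 0 passed (0%) in the luminal gate, in the Sca1-high gate and over the 3 gates, and 2 passed (0.00993%) in the basal gate. Without adjustment 0, 1 and 1 of the 5 genes had a p under 0.05 in the luminal, Sca1-high and basal gates, and 716, 486 and 443 of all genes. In luminal cells the LY6D+ minus LY6D- difference of Svs2 was 0.14, with a 95% interval of -0.93 to 1.21. For Svs6 that interval was -3.21 to 2.95, so that differences of several log2 units could not be told from none. The Ly6d signals given above limit what the labels say of the Sca1-high pair of mouse 5.

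Svs6 had the widest LY6D differences of the 5 genes outside the luminal gate. In basal cells the library labelled LY6D+ was higher by 3.63 in mouse 3 and 4.45 in mouse 5, a mean of 4.04 ± 1.37 (limma SE). Endothelial markers separated the same basal libraries, with a summed signal (log2 of the summed linear signals) of 7.95 to 7.97 in LY6D+ and 11.26 to 11.62 in LY6D- cells, and their part in the difference was not tested. In the Sca1-high gate the library labelled LY6D+ was lower in both mice, with differences of -1.19 in mouse 1 and -5.67 in mouse 5, a mean of -3.43 ± 1.37, which without both libraries of mouse 5 leaves the value of mouse 1. The difference between these gates was -7.47 ± 1.94 and did not pass over all genes (limma unadjusted p = 0.00364, adjusted p = 1.00). Svs3a had opposite signs in the mice of every gate, with Sca1-high values of 4.44 in mouse 1 and -1.35 in mouse 5.

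The rest of the chromosomal run was examined for the same gate pattern. Svs3b had luminal signals of 9.22 to 10.36, but 9.98 in Sca1-high LY6D+ cells of mouse 1 and 9.11 in basal LY6D+ cells of mouse 5, with 3.81 to 5.06 in the other 6 libraries. Its basal minus luminal difference was -4.14 ± 1.23 (limma adjusted p = 0.271). Of the genes before the run, Wfdc15b, which encodes a protein with a whey acidic protein domain, had a basal minus luminal difference of -2.01 ± 0.62 (adjusted p = 0.291). Wfdc12 and Wfdc15a, of the same protein family, had -0.08 ± 0.20 and -0.31 ± 0.32. After the run, the difference was -0.49 ± 0.36 for Slpi, a secreted protease inhibitor, and -0.06 ± 0.21 for Matn4, which encodes the matrix protein matrilin 4. Mir7678, within Slpi's span, had no probe set in the annotation. The WAP and Kunitz inhibitor genes of the wider region, 18 tested of 19, had a median basal minus luminal difference of -0.10, and none passed. Their median signals over the libraries ran from 2.49 to 6.16, in part under the table's median of 3.90, which limits what that difference can show.

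**Figure D3:**
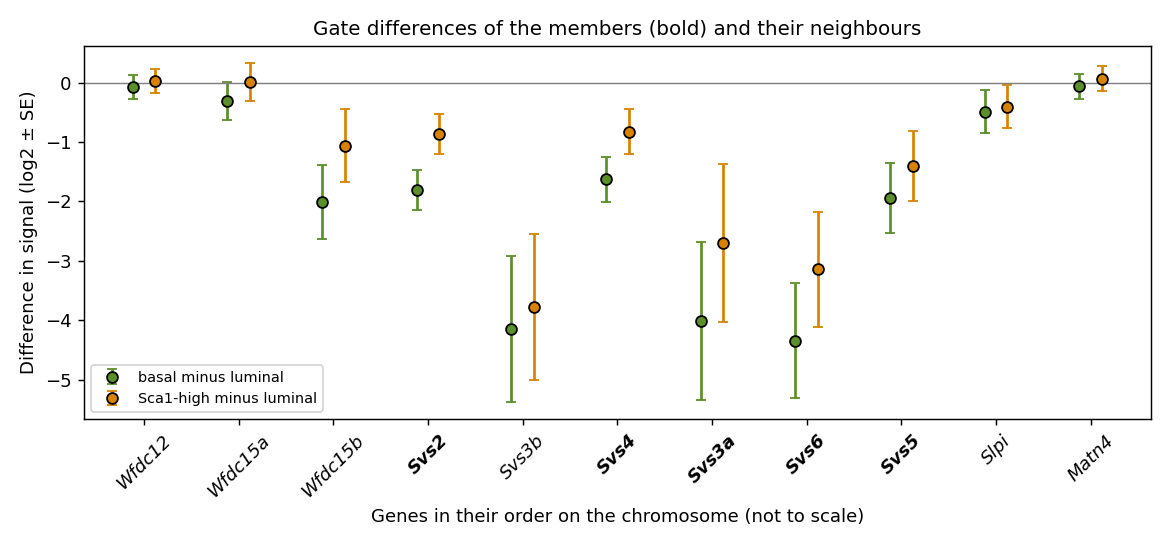
Gate differences in signal (log2 ± limma SE, y axis) of genes in chromosomal order (x axis, not to scale). Shown are the genes of the run and those of the 3 nearest genes on either side that had a value. All 6 genes of the run and, outside it, Wfdc15b and Slpi lie below 0 by more than their SE in both comparisons, and none of the 11 genes passed the test.

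Other genes of seminal vesicle secretion were examined in the same way. Of 10 listed, 7 had a single-symbol probe set and 5 were tested, and none of the 5 passed in any comparison of gates. Their basal minus luminal differences were below 0 for 5 of 5, as for 54.2% of all genes tested. The median was -4.18, beside -1.94 for the 5 genes above and -0.03 over all genes tested. Spink1, which encodes a trypsin inhibitor of semen, ranged from 12.84 to 13.13 in luminal cells, from 10.82 to 12.52 in Sca1-high cells and from 8.28 to 12.20 in basal cells. Svs1, whose product is a plug protein related to amine oxidases, was 10.13 to 11.21 in luminal cells and 3.79 to 9.92 in the other 8 libraries. Sva, Sval1 and Sval2 were chosen for mention after their values were seen.

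Sva, which encodes a glycoprotein that binds sperm, was 9.60 to 10.27 in the luminal libraries, 9.63 in basal LY6D+ cells of mouse 5 and 8.13 in Sca1-high LY6D+ cells of mouse 1. In the other 6 libraries it was 3.02 or less, around or below the lower quartile of the table. Those 2 libraries outside the luminal gate were also the ones with high Svs3b. Sval1 and Sval2, relatives of Sva, had signals of 1.63 to 2.70 in all 12 libraries and fell under the filter.

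**Figure D4:**
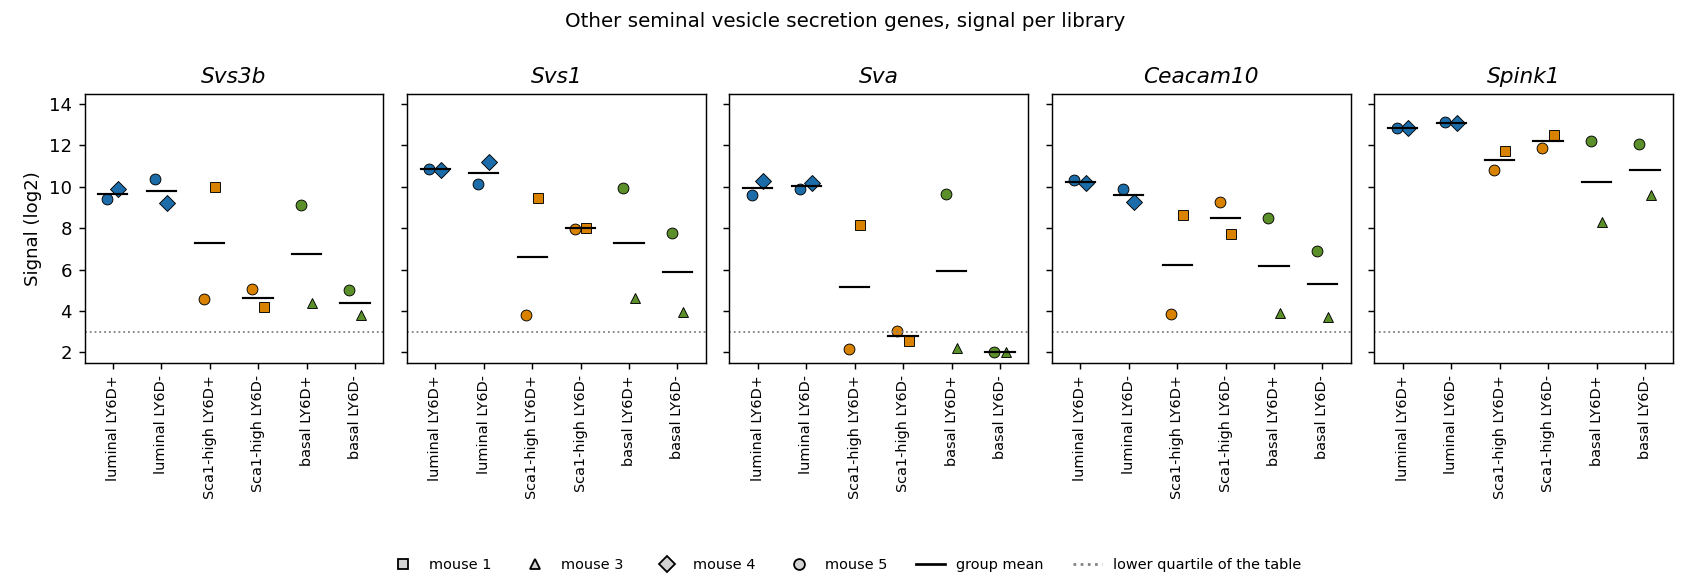
Signal (log2, y axis) of 5 other seminal vesicle secretion genes in each of the 12 libraries, by gate and LY6D class (x axis); symbols and lines are as in the plot of the 5 members. Svs3b and Sva are high in all 4 luminal libraries and in 2 of the other 8, and Spink1 spreads most in the basal gate.

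The 5 genes had similar profiles over the 12 libraries. Against the mean of the other 4 members, each centred on its own mean, Pearson's r was 0.945 for Svs2, 0.966 for Svs4, 0.918 for Svs5, 0.878 for Svs6 and 0.737 for Svs3a. Over the 8 libraries outside the luminal gate these values were 0.895, 0.939, 0.853, 0.771 and 0.518. The points share gates and mice, so the values are descriptions. Among other genes, the profiles most like the mean of the members were those of Ceacam10 (r = 0.957), a secreted cell adhesion molecule of the seminal vesicle, and Svs1 (0.936). They were followed by Ehf (0.917), an epithelial transcription factor, Cdcp3 (0.899), Nucb2 (0.890), a calcium-binding protein of the secretory pathway, Lamp1 (0.886), a lysosomal membrane protein, Apof (0.883), an apolipoprotein, and Pbsn (0.873), the androgen-regulated prostate protein probasin. Without the luminal gate the r of these 8 genes lay between 0.761 for Pbsn and 0.931 for Ceacam10.

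Secretory genes of the prostate itself were set beside them. Of 12 tested, 11 had basal minus luminal differences below 0, as had 54.2% of all genes tested, with a median of -3.02 over the 12. Past the threshold were 5 of them, beside 0.417% of all genes. They were Cdcp3 (-4.56 ± 0.55, limma adjusted p = 0.0182), Azgp1 (-3.32 ± 0.32, 0.00672), which encodes a lipid-mobilizing glycoprotein, Mme (-3.13 ± 0.50, 0.0402), which encodes the surface peptidase CD10, Apof (-2.91 ± 0.49, 0.0483) and Gdpd1 (-1.86 ± 0.23, 0.0182). Within the luminal gate Gdpd1 was 4.52 and 5.29 in LY6D+ libraries but 7.41 and 6.99 in LY6D- libraries. Its signals were 4.13 to 4.49 in Sca1-high and 3.93 to 4.43 in basal libraries. Sca1-high minus luminal differences were likewise below 0 for 11 of 12, as for 40.2% of all genes tested. In that comparison Azgp1, Gdpd1 and Mme passed, beside 0.139% of all genes. The mean of the 5 seminal vesicle genes followed the mean of these 12 genes over the libraries with r = 0.877, and 0.755 without the luminal gate. Basal libraries of mouse 3 were lowest in both groups of genes.

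**Figure D5:**
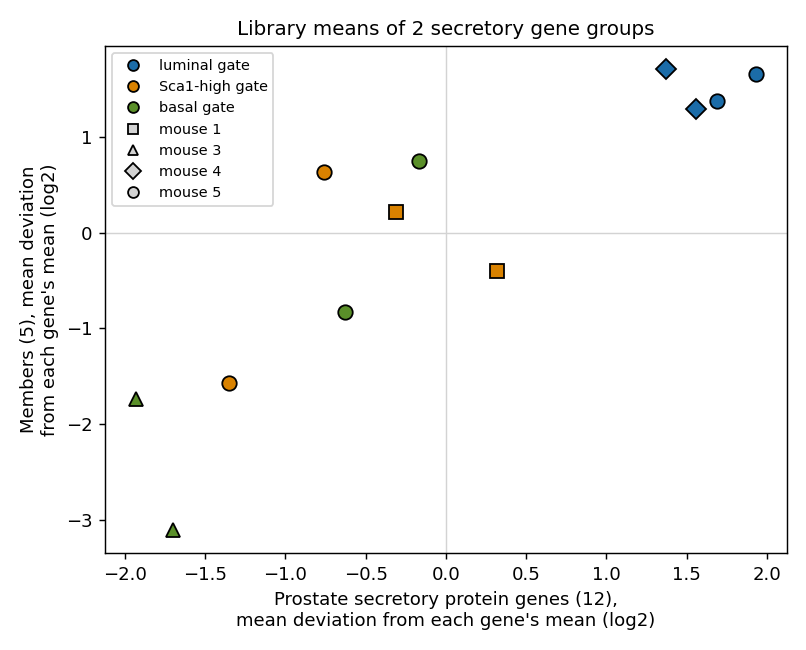
Mean deviation of the 5 members from each gene's own mean (log2, y axis) against the same for 12 prostate secretory protein genes (x axis), 1 point per library, with gates by colour and mice by symbol. The luminal libraries are at 1.29 to 1.71 on the y axis, and the basal libraries of mouse 3 are at -1.74 and -3.11.

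Genes that act on the semen coagulum were examined as a further list. Of 11 tested none passed in any comparison of gates, with a median basal minus luminal difference of -0.05. Eppin, Serpina5, Klk1b22, Klk1b24, Klk1b27 and Pi15, named after their values were seen, had median signals of 2.55 to 3.89. These lie under the table's median of 3.90, so the list's median cannot show whether the coagulum genes share a gate pattern. Tgm4, the plug transglutaminase, had -3.45 ± 1.10 (adjusted p = 0.313), and Plau, the urokinase-type plasminogen activator, had -0.57 ± 0.40 (0.793). Of 9 androgen-regulated genes tested, which include Pbsn, none passed, with a median of -0.33. Pbsn had -3.41 ± 0.87 (adjusted p = 0.188) and Ndrg1, a stress and differentiation gene, had 1.75 ± 0.55 (0.299).

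Markers of other cells were set beside the gate differences. Of 9 genes of the Wolffian duct epithelium, from which seminal vesicle and epididymis derive, 7 were tested and none passed, with a median basal minus luminal difference of -0.03. Their summed signal (log2 of the summed linear signals) was 6.47 to 7.04 in luminal, 6.65 to 7.24 in Sca1-high and 6.68 to 7.10 in basal libraries. Pax2, a transcription factor of that duct, was 3.71 to 4.35 over the 12 libraries, close to the median of the table. The list mixes genes of seminal vesicle and epididymis, and how far seminal vesicle cells alone would raise it was not tested. Myeloid markers lay in the same direction as the members. Of 9 tested, 9 had basal minus luminal differences below 0, as had 54.2% of all genes tested. Past the threshold were 2, beside 0.417% of all genes: Cd68 (-4.26 ± 0.68, limma adjusted p = 0.0403) and Adgre1 (-3.36 ± 0.57, 0.0483). The summed signal of all 9 markers was 11.28 to 12.33 in luminal, 7.89 to 11.10 in Sca1-high and 8.01 to 8.92 in basal libraries, none of it at 0. The part of these cells in the members' differences was not tested.

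Of the endothelial markers, Emcn, an endothelial sialomucin, was higher in Sca1-high than in luminal cells by 5.69 ± 0.66 (limma adjusted p = 0.0203). It was the 1 of 8 markers to pass, beside 0.139% of all genes. In the Sca1-high libraries of mouse 1 alone it was 9.08 and 11.22, against 3.55 to 5.68 in luminal libraries. Their summed signal was 7.20 to 7.82 in luminal, 9.93 to 12.42 in Sca1-high and, in basal libraries, 7.95 to 7.97 in LY6D+ and 11.26 to 11.62 in LY6D- cells. Of the fibroblast and smooth muscle markers 10 were tested and none passed. Basal minus luminal differences were below 0 for 7 of 10, as for 54.2% of all genes tested. Their summed signal was 9.59 to 10.75 in luminal, 11.12 to 11.34 in Sca1-high and 11.25 to 11.66 in basal libraries. That sum mainly reflects Dcn, the brightest of the list. Dcn was 8.65 to 10.34 in luminal, 10.64 to 11.12 in Sca1-high and 11.08 to 11.54 in basal libraries. The part of either in the members' lower signal outside the luminal gate was not tested.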

How the data were processed

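RNA of 12 sorted samples was purified with a column kit and amplified with the NuGEN Ovation V2 system, per the labels' protocols. The authors deposited log2 signals per probe set; RMA and oligo are named, with no version, per the submitters' processing notes. The values were used as deposited. Of 41345 probe sets, 23521 had 1 gene symbol in the platform annotation, 1814 had several and 16010 were not listed. Of a gene's probe sets the brightest was kept, and genes with at least 2 arrays above the lower quartile were tested.

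A mean per group was estimated by limma 3.58.1 (R 4.3.3; 6 residual and 3.28 prior degrees of freedom), checked on simulated data, with Benjamini-Hochberg adjustment over 20135 genes and a threshold of 0.05. A gate contrast averages its LY6D+ and LY6D- groups. SDs and n count libraries. Same-numbered samples came from the same mouse; the deviations of such LY6D pairs from their group means had an r of 0.022 for luminal, 0.149 for Sca1-high and 0.407 for basal cells. The number of arrays limits the precision. Promoters were aligned with Biopython 1.88.

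The members, lists and tests were chosen with earlier results of these data known. Genes named are the members, list genes past the threshold (otherwise the 2 of the highest mean signal), chromosomal neighbours and the 8 genes most like the members; others are named as chosen afterwards.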

Additional observations from a re-analysis of the deposited data

Results flagged for a closer look

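In the Sca1-high gate Svs5 had 1 library far from the other 3: 10.16 in cells of mouse 5 labelled LY6D+, against 12.30 to 12.59. It was 1 of 15 sets of 4 libraries examined (5 genes in 3 gates), and chance alone singles out about 1 in 20 such sets. The same library had the low Krt18 signal, and what part that has in the value was not tested.

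For 4 contrasts both mice of one gate had an LY6D difference opposite to that of both mice of another. This was looked for in 5 genes and 3 pairs of gates. With 2 mice per gate such signs also arise by chance, and their share over all genes was not determined. All 4 contrasts use the Sca1-high gate, where the Ly6d signals of mouse 5 ran against the labels (4.70 for LY6D+, 7.37 for LY6D-). The Sca1-high minus basal difference of the LY6D+ minus LY6D- values was -1.43 for Svs4, -2.50 for Svs5 and -7.47 for Svs6, and the Sca1-high minus luminal difference was -1.33 for Svs5. None of the 4 passed limma's test of the difference over all genes (adjusted p = 1.00 for each).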

How the results depend on the processing

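No member passed the threshold in any gate or LY6D comparison under any alternative run, with 1 exception. Svs2 passed for basal against luminal cells after quantile normalization (1 member past the threshold, beside 106 of 20135 genes). Every basal minus luminal and Sca1-high minus luminal difference of the 5 genes stayed below 0 in all alternatives, the replicate block included. With the fixed replicate block these differences rest on mouse 5 alone. The Sca1-high minus basal direction turned with mouse as a fixed replicate block for Svs3a (-0.37), Svs4 (-0.0952), Svs5 (-0.97) and Svs6 (-1.05). With each library left out in turn it ran from -0.11 to 2.72 for Svs3a and from -0.0468 to 1.12 for Svs5. LY6D+ minus LY6D- directions turned as follows, with the cause not tested. Leaving out single libraries gave, in luminal cells, -0.0722 to 0.36 for Svs2, -0.39 to 0.83 for Svs3a, -0.24 to 0.0401 for Svs4 and -0.41 to 0.16 for Svs6. In Sca1-high cells it gave -0.47 to 0.055 for Svs2, -0.49 to 3.58 for Svs3a and -2.28 to 0.017 for Svs5, and in basal cells -2.61 to 3.04 for Svs3a and -0.0534 to 1.49 for Svs4. Over the 3 gates it gave -0.28 to 1.60 for Svs3a, -0.29 to 0.22 for Svs4, -0.24 to 0.54 for Svs5 and -0.45 to 0.77 for Svs6. Without the 3 libraries of mouse 5 the value was 0.0401 for Svs4 and 0.16 for Svs6 in luminal cells, -0.89 for Svs3a in basal cells and 0.074 for Svs4 over the gates. Without both Sca1-high libraries of mouse 5, a choice made after seeing the data, it was 0.26 for Svs2 in Sca1-high cells and 0.13 for Svs4 over the gates.

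Over all genes, the number called between basal and luminal cells was 84 and ran from 0 (without the 3 libraries of mouse 5) to 255 (without luminal LY6D- mouse 4). Between Sca1-high and luminal cells it was 28, with 0 to 165, and between Sca1-high and basal cells 2, with 0 (gate and mouse as the unit) to 133 (without basal LY6D- mouse 3). With the fixed replicate block these counts were 100, 104 and 80.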
